A study of Mus musculus with 24 samples.

Results

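Epididymal white fat (eWAT), a visceral depot beside the testis, was compared between chow-fed C57BL6 mice given an adeno-associated virus (AAV) for irisin and mice given the control vector AAV-GFP. The comparison rests on 6 of the 24 libraries of the series, 3 irisin and 3 GFP, chosen by their labels, and on the 14840 of 54532 genes that reached 0.5 FPKM in 3 or more of these 6. FPKM are fragments counted for a gene, scaled by its length and by the library's depth. The series also holds a subcutaneous depot, inguinal fat (iWAT), and mice on a high-fat diet (HFD), with 3 libraries in each of its 8 groups. The diets lasted 18 weeks. The labels give neither the age and sex of the mice nor the serotype, promoter, dose or target tissue of the vector, so that the cells that made irisin are not known from them. Whether each library is from a mouse of its own is not stated, and p-values therefore measure only the spread between these libraries.

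Irisin is the ectodomain of a membrane protein encoded by Fndc5, released as a hormone and best known from contracting muscle. Its receptors in fat and bone contain the integrin alpha V, paired with beta 5. The title of the series names the cytokine IL-33 and its receptor ST2 as the route under study, a pathway that in visceral fat acts on regulatory T cells and group 2 innate lymphocytes. Visceral fat is also rich in blood vessels, resident macrophages, mesothelium and small lymphoid clusters, so that its bulk RNA reports the mixture of cells as well as their state. In such samples fewer cells of a type and less RNA per cell cannot be told apart.

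Values are listed in the order of replicates 1, 2 and 3. Effects are log2 fold changes ± SE, irisin against GFP, computed from log2(FPKM + 0.5), so that differences of low genes come out too small, and a gene was called where limma's Benjamini-Hochberg adjusted p was under 0.05. The gene reads recovered from the FPKM ranged from 14152474 to 18442934 in the 6 libraries. The tissue label matched its markers. Wt1, a transcription factor of visceral mesothelium, was at 10.1, 5.82 and 10.4 FPKM in the GFP libraries and 8.22, 5.499 and 11.9 in the irisin libraries, and Tbx15, a subcutaneous marker, was at 0.0880 or less in all 6. The muscle gene Ckm and the epididymal gene Adam7 were listed at 0 in all 6. In eWAT GFP HFD 3, which enters the fit and the HFD values below, Adam7 was at 291 FPKM. The library GFP chow 1 stood apart by its high genes. It held 115 protein-coding genes at least 2-fold above each of the other 5 libraries, against 2 to 22 in those, and the list score of its B cell markers (the mean log2(FPKM + 0.5) of the members less the median of the 6 libraries) was 2.84, against -0.48 to 0.80. By the median absolute difference from the median of the 6 libraries, GFP chow 1 was not the farthest. It was at 0.14 there, GFP chow 2 at 0.17 and GFP chow 3 at 0.18. GFP chow 3 also held the pancreatic gene Ctrb1 at 48.6 FPKM, against 0 to 1.81 in the other 5. Results are also given without GFP chow 1, and in these the GFP group rests on GFP chow 2 and 3 alone.

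limma called 0 of the 14840 genes (0%), and the lowest adjusted p was 0.0934. At an unadjusted p under 0.05 stood 785 genes (5.29%), 461 of them higher with irisin (3.11%) and 324 lower (2.18%). The voom method on recovered reads also called 0, with 774 at an unadjusted p under 0.05. The 3 irisin libraries lay above the 3 GFP libraries in 878 genes (5.92%) and below them in 604 (4.07%), 1482 (9.99%) in all. Without GFP chow 1 again 0 genes were called, but 2371 (16%) had an unadjusted p under 0.05, the lowest adjusted p was 0.0507, and 377 genes had an adjusted p under 0.1, against 2 with all libraries. Of the 785 genes, 663 also had a p under 0.05 without that library, and all 663 of these had the same sign. No gene below is therefore reported as changed. The values describe where these libraries lay. The gene lists were chosen with earlier results of these data known. Their counts beside the shares of all genes are therefore descriptions of these libraries and not a test of the lists.

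**Figure D1:**
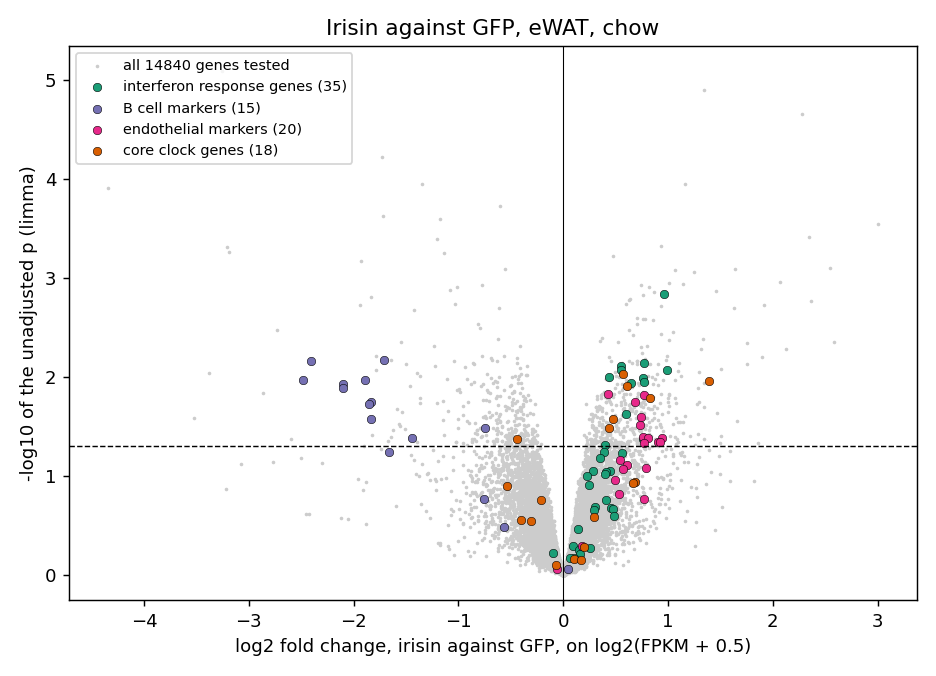
Log2 fold change of irisin against GFP (x axis, on log2(FPKM + 0.5)) and the -log10 of limma's unadjusted p-value (y axis) for the 14840 genes tested in eWAT on chow, with 4 gene lists in colour and a dashed line at the unadjusted threshold of 0.05. The interferon and endothelial genes lie to the right and the B cell markers to the left of 0, and no gene passed the adjusted threshold.

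The genes of the hormone, its receptor and the IL-33 route came first. Fndc5 (ENSMUSG00000001334) was at 0.454, 0.131 and 0.3896 FPKM in the GFP libraries and 0.456, 0.801 and 1.4 in the irisin libraries. The lowest irisin library and the highest GFP library were nearly level, and the other 2 irisin libraries were higher. The gene missed the filter on low values. Fitted without a filter its log2 fold change was 0.71 ± 0.46 (limma, adjusted p = 0.864). Itgav, the integrin alpha V chain, was at 3.22, 5.62 and 5.63 FPKM in the GFP libraries and 3.44, 2.65 and 3.26 in the irisin libraries. The irisin libraries lay among or below the GFP libraries, with a log2 fold change of -0.53 ± 0.22 (adjusted p = 0.926). Only GFP chow 1 overlapped with them, and without it the log2 fold change of Itgav was -0.77 (adjusted p = 0.0917). In eWAT on HFD it was -0.70 and in iWAT on chow -0.11. Itgb5, the beta 5 chain, was at 70.2, 85.05 and 81.9 FPKM in the GFP libraries and 73.3, 70.9 and 75.5 in the irisin libraries, with -0.10 ± 0.14 (adjusted p = 0.974). Il33, made by stromal and mesothelial cells, was at 7.15, 5.55 and 17.3 FPKM in the GFP libraries and 8.88, 4.75 and 10.2 in the irisin libraries, and the highest GFP library set much of the group's spread. Its log2 fold change was -0.22 ± 0.41 (adjusted p = 0.99), and the direction turned to 0.25 without GFP chow 3 and to 0.094 without irisin chow 2. Il1rl1, the gene of ST2, was at 2.35, 1.84 and 2.25 FPKM in the GFP libraries and 1.45, 1.48 and 1.88 in the irisin libraries, and the groups overlapped only in the highest irisin and the lowest GFP library (log2 -0.33 ± 0.34, adjusted p = 0.958).

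Of the 26 genes of IL-33, ST2 and type 2 signalling, 19 were tested, 8 with a higher and 11 with a lower mean, and their median log2 fold change was -0.047, beside 0.011 for all genes. Tslp, an epithelial and stromal cytokine that drives type 2 cells, was at 2.85, 1.91 and 2.53 FPKM in the GFP libraries and 3.65, 3.43 and 3.75 in the irisin libraries, each irisin library above each GFP library (log2 0.50 ± 0.23, adjusted p = 0.926). Arg1, arginase of alternatively activated macrophages, lay lower in each irisin library, at 1.07, 1.62 and 1.53 against 0.619, 1.04 and 0.434 FPKM (log2 -0.69 ± 0.33, adjusted p = 0.926). Foxp3, the defining factor of regulatory T cells, was at 0.397, 0.163 and 0.12 FPKM in the GFP libraries and 0.135, 0.176 and 0.0485 in the irisin libraries, below the filter, and 6 of 15 markers of these cells could be tested, with a median of -0.031 that turned to 0.063 without GFP chow 1. None of the members of either list was called.

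Interferon response genes, induced by type I and type II interferons through STAT and IRF factors, lay higher in the irisin libraries almost as a whole. Of 35 tested members 34 had a higher mean, with a median log2 fold change of 0.41, whereas 52.4% of all genes had one. None was called (adjusted p from 0.613 to 0.994). In 17 of the 35 each irisin library was above each GFP library, against 5.92% of all genes, and in none was each below. At an unadjusted p under 0.05 stood 12 members, all higher.

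Rsad2, which encodes the antiviral enzyme viperin (chromosome 12, positions 26442746 to 26456452 as deposited), was at 2.43, 1.76 and 1.61 FPKM in the GFP libraries and 5.27, 3.57 and 3.96 in the irisin libraries. The lowest irisin library was 1.47 times the highest GFP library, and the log2 fold change was 0.97 ± 0.23 (adjusted p = 0.613). Usp18, the protease that removes ISG15 from proteins, was at 1.65, 1.03 and 1.35 FPKM in the GFP libraries and 3.63, 2.36 and 2.08 in the irisin libraries, again without overlap (log2 0.77 ± 0.23, adjusted p = 0.926). Irf7, the factor that amplifies interferon production, was at 6.59, 6.23 and 5.23 FPKM in the GFP libraries and 9.88, 9.31 and 7.903 in the irisin libraries (log2 0.55 ± 0.17). All 3 of these genes were highest in irisin chow 1. Rtp4 stood at 5.48, 4.57 and 2.89 FPKM in the GFP libraries and 10.2, 9.703 and 6.81 in the irisin libraries (log2 0.99 ± 0.31), and Xaf1, a pro-apoptotic interferon target, at 3.83, 2.74 and 2.65 FPKM in the GFP libraries and 5.36, 4.89 and 3.89 in the irisin libraries (log2 0.55 ± 0.17). Oas2, a sensor of double-stranded RNA, was at 4.92, 2.84 and 2.84 FPKM in the GFP libraries and 5.15, 5.94 and 7.63 in the irisin libraries (log2 0.77 ± 0.25) and was highest in irisin chow 3. Iigp1, a GTPase induced by interferon gamma, was at 6.93, 5.34 and 4.16 FPKM in the GFP libraries and 12.6, 8.16 and 8.34 in the irisin libraries (log2 0.77 ± 0.25). The adjusted p of Irf7, Rtp4, Xaf1, Oas2 and Iigp1 was 0.926 in each case.

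The genes of signal factors also had a higher mean. Stat2 was at 7.77, 4.66 and 4.53 FPKM in the GFP libraries and 8.597, 8.31 and 8.14 in the irisin libraries (log2 0.56 ± 0.27) and Irf9, its DNA-binding partner, at 7.24, 5.17 and 4.997 FPKM in the GFP libraries and 7.699, 7.67 and 7.56 in the irisin libraries (log2 0.39 ± 0.18), both without overlap. In both genes GFP chow 1 was the GFP library nearest to the irisin libraries. The most abundant member, Ifi27l2a, was at 2578, 2396 and 2898 FPKM in the GFP libraries and 3416, 3145 and 3856 in the irisin libraries (log2 0.40 ± 0.22). Other members overlapped, and Ifit2 turned from 0.16 to -0.076 without GFP chow 1. Isg15, the ubiquitin-like modifier, was at 4.97, 9.44 and 5.06 FPKM in the GFP libraries and 11.4, 11.6 and 5.201 in the irisin libraries, and Ifit2 at 2.44, 3.95 and 4.63 FPKM in the GFP libraries and 5.26, 2.94 and 4.202 in the irisin libraries. Gbp7, with a log2 fold change of -0.10, was the member with a lower mean. The interferon gamma chemokine Cxcl10, which is not in the list, was at 3.13, 1.95 and 2.44 FPKM in the GFP libraries and 4.88, 4.24 and 5.15 in the irisin libraries (log2 0.82 ± 0.19, adjusted p = 0.593).

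**Figure D2:**
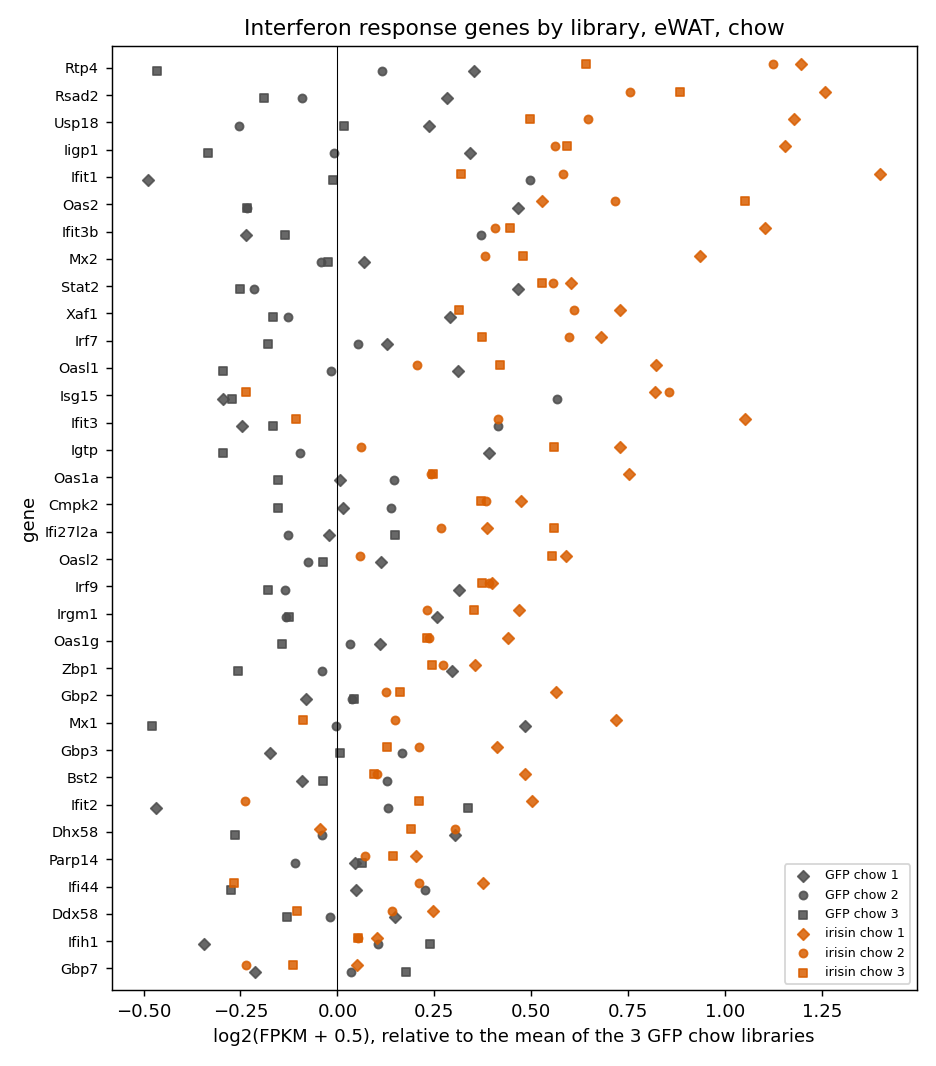
34 of the 35 tested interferon response genes in each eWAT chow library, as log2(FPKM + 0.5) relative to the mean of the 3 GFP libraries (GFP grey, irisin orange, replicate by symbol). Most orange points lie right of the grey ones, irisin chow 1 (orange diamonds) often farthest, and Gbp7 at the bottom is the member with a lower mean.

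The list score was -0.10, -0.15 and -0.32 in the GFP libraries and 0.44, 0.15 and 0.10 in the irisin libraries, so that the groups did not overlap. Without GFP chow 1 the median was 0.46, and over 13 other settings it stayed between 0.31 and 0.48. The scores of T and NK cell markers, the cells that make interferon gamma, were 1.36, -0.17 and -0.20 in the GFP libraries and 0.31, 0.15 and -0.15 in the irisin libraries, with GFP chow 1 highest. Their part in the interferon values was not tested. In eWAT on HFD the same 35 genes had a median of -0.24, irisin against GFP, and in iWAT on chow one of 0.23. Rsad2 differed between chow and HFD by 1.62 ± 0.32 (limma's vector by diet term, adjusted p = 0.606) and Irf7 by 0.92 ± 0.24 (adjusted p = 0.906). No member passed the test of a difference between diets or between depots. Over all genes the diet term called 1 gene of 14840 (0.00674%) and the depot term 0 (0%), with 594 (4%) and 411 (2.77%) at an unadjusted p under 0.05.

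Interferon-stimulated genes carry a binding site for STAT and IRF complexes, the interferon-stimulated response element (ISRE), close to their start. RefSeq promoter sequences (build GRCm38.p6) matched 24 of the 35 members by symbol. A word made of GAAA, any 2 bases and GAAA again, on either strand, occurred in the 250 bases before the start of 14 of these 24 genes (58.3%) and of 936 of all 27025 symbols in the table (3.46%). Among the members whose groups did not overlap 6 of 10 held it, a share close to the 58.3% of all matched members. Gbp7, the member with a lower mean, held it as well. A match describes the letters only. The promoters of 4 members, those with the smallest p among the members that hold the word, are shown 5′ to 3′ with the word in capitals, since these genes lay higher together.
Rsad2, chr12:26456453-26456702, minus strand: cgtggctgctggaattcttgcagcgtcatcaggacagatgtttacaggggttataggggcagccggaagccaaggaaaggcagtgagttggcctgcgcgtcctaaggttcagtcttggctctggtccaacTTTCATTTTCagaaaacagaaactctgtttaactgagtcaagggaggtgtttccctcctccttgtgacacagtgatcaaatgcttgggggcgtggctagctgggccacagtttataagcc
Ifit3b, chr19:34607707-34607956, plus strand: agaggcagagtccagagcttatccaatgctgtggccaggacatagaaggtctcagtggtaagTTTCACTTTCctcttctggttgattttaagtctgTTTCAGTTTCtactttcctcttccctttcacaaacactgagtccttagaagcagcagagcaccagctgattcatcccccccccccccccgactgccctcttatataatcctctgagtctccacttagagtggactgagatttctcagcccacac
Ifit1, chr19:34640639-34640888, plus strand: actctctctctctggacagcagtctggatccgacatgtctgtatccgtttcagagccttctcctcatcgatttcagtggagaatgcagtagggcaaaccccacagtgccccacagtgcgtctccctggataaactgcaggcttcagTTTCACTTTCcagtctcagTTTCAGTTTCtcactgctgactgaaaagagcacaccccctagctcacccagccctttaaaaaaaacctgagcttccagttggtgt
Stat2, chr10:128270248-128270497, plus strand: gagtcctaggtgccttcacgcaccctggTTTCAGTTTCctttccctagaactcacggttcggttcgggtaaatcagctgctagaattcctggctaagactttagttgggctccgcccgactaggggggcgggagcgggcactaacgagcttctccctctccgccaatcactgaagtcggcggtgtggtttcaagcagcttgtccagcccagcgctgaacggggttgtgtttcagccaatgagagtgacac
The ends of the sequences are the last base before the annotated start. In Rsad2 the word begins 120 bases before the start, and Ifit3b and Ifit1 hold it 2 times each. Ifit3b, which like Ifit1 belongs to a family of interferon-induced RNA-binding proteins with near-identical copies, was at 1.58, 2.67 and 1.73 FPKM in the GFP libraries and 4.77, 2.75 and 2.84 in the irisin libraries, and Ifit1 at 1.59, 3.64 and 2.41 FPKM in the GFP libraries and 7.23, 3.88 and 3.15 in the irisin libraries. How reads were shared between the Ifit copies is not known from the table, which makes their levels uncertain.

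Several clock genes lay apart between the irisin and GFP libraries. The clock is a feedback loop in which BMAL1 (Arntl) and CLOCK drive Per, Cry and Dbp, whose transcripts peak while Arntl is low. Of 18 tested members 12 had a higher and 6 a lower mean with irisin, and the median was 0.25. Each irisin library was above each GFP library in 7 members (5.92% of all genes) and below in 1 (4.07%). None was called. The labels used here give no time of tissue collection.

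Dbp, an output factor of the clock (chromosome 7, positions 45705088 to 45710203), was at 7.802, 6.87 and 4.38 FPKM in the GFP libraries and 18.5, 14.99 and 17.8 in the irisin libraries, the widest difference of the list at log2 1.39 ± 0.46 (adjusted p = 0.926). The lowest irisin library was 1.92 times the highest GFP library. Tef, a related output factor, was at 12.3, 14.3 and 12.3 FPKM in the GFP libraries and 20.04, 19.5 and 20.4 in the irisin libraries (log2 0.61 ± 0.20). The repressor genes Per1, at 15.3, 10.6 and 12.8 FPKM in the GFP libraries and 15.5, 22.9 and 20.01 in the irisin libraries (log2 0.57 ± 0.18), Per2, at 2.68, 2.29 and 2.86 FPKM in the GFP libraries and 3.504, 3.605 and 3.98 in the irisin libraries (log2 0.44 ± 0.18), and Per3, at 3.38, 2.71 and 3.12 FPKM in the GFP libraries and 6.04, 5.23 and 6.23 in the irisin libraries (log2 0.83 ± 0.29), were without overlap as well, though in Per1 GFP chow 1 nearly reached the lowest irisin library. Cry2 was at 11.4, 9.32 and 6.85 FPKM in the GFP libraries and 11.6, 13.6 and 12.98 in the irisin libraries (log2 0.47 ± 0.18), while Cry1 was at 2.57, 1.96 and 2.29 FPKM in the GFP libraries and 1.85, 2.101 and 1.72 in the irisin libraries (log2 -0.21 ± 0.15) with overlap. Arntl went the other way, at 3.32, 3.01 and 3.08 FPKM in the GFP libraries and 2.15, 2.16 and 2.22 in the irisin libraries (log2 -0.44 ± 0.19), each irisin library below each GFP library. The adjusted p was 0.926 for each of these clock genes.

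Clock itself was at 3.65, 8.44 and 8.19 FPKM in the GFP libraries and 4.83, 4.16 and 3.78 in the irisin libraries, with GFP chow 1 lowest of all 6, and Nr1d1, the repressor REV-ERB alpha, at 67.1, 47.6 and 51.3 FPKM in the GFP libraries and 63.7, 70.6 and 67.7 in the irisin libraries with overlap. The list score was -0.081, -0.082 and -0.10 in the GFP libraries and 0.14, 0.081 and 0.26 in the irisin libraries. Without GFP chow 1 the median was 0.42, with 10 members higher and 8 lower, Dbp was at log2 1.55 and Arntl at -0.40. In eWAT on HFD the list's median was -0.073 and in iWAT on chow 0.11. Dbp differed between the diets by 1.53 ± 0.64 (adjusted p = 0.906). In eWAT on HFD it was at 2.46, 4.48 and 12.3 FPKM in the GFP libraries and 5.23, 2.90 and 6.78 in the irisin libraries. The highest of these was GFP HFD 3, the library that held Adam7, and its part in the HFD clock values was not tested.

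**Figure D3:**
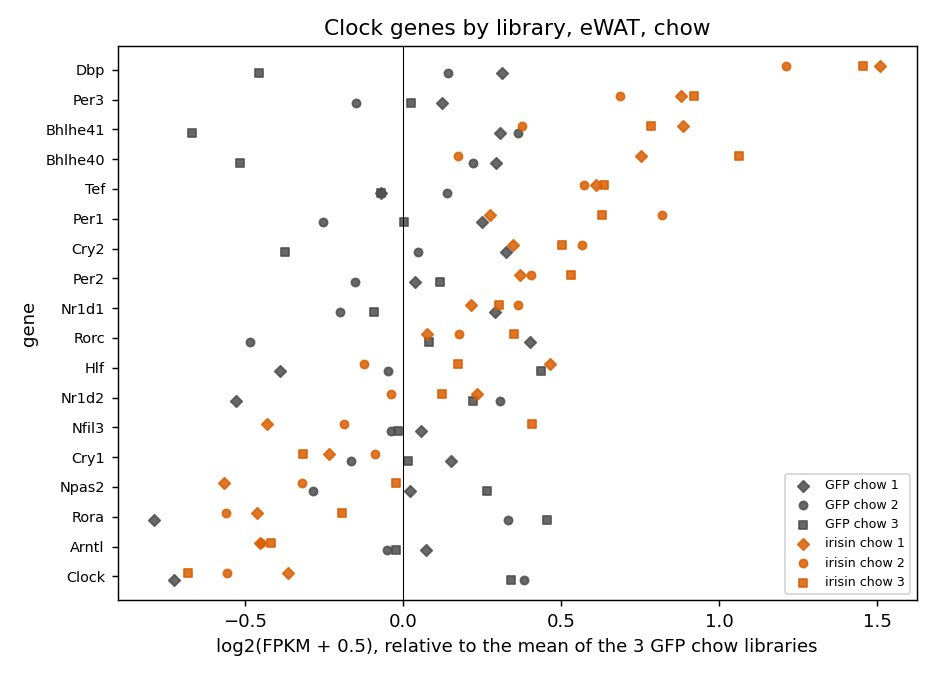
The 18 tested clock genes in each eWAT chow library, as log2(FPKM + 0.5) relative to the mean of the 3 GFP libraries (GFP grey, irisin orange, replicate by symbol). Dbp, Per3 and Tef lie to the right in all 3 irisin libraries and Arntl to the left.

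The E-box CACGTG, which reads the same on both strands and is bound by BMAL1 and CLOCK, occurred in the 250 bases before a RefSeq start of 4 of 15 matched members (26.7%), Per1 and Tef among them, and of 1854 of 27025 symbols (6.86%). The others were Bhlhe41, apart above, and Cry1, with overlap and a lower mean, while Dbp, Per3, Cry2 and Arntl, all apart, held none in these windows. Per1 and Tef are shown as examples with the word in capitals, each at the first of its 2 listed starts. The second window of Per1 does not hold it and that of Tef does.
Per1, chr11:69098699-69098948, plus strand: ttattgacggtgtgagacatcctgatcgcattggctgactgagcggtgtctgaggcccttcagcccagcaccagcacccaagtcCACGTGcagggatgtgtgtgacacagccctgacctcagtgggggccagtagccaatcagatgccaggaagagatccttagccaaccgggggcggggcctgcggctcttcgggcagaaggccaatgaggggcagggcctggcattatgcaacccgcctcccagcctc
Tef, chr15:81802423-81802672, plus strand: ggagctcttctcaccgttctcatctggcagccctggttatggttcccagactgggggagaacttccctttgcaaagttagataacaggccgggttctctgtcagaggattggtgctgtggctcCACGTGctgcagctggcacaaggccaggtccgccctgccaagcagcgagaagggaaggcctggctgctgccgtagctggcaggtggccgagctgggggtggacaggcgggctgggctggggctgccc

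B cell markers had lower means in the irisin libraries, and GFP chow 1 was far above the other libraries. Of 15 tested members 14 had a lower mean, with a median of -1.83. Cd79a, a chain of the B cell receptor, was at 43.6, 3.07 and 6.86 FPKM in the GFP libraries and 1.94, 1.15 and 1.15 in the irisin libraries. Ms4a1, which encodes CD20, was at 8.61, 0.525 and 1.44 FPKM in the GFP libraries and 0.466, 0.157 and 0.135 in the irisin libraries, and Cxcr5, a receptor that guides B cells into follicles, at 5.998, 0.519 and 1.71 FPKM in the GFP libraries and 0.2701, 0.275 and 0.193 in the irisin libraries. In each of these 3 genes the irisin libraries were below all 3 GFP libraries, and GFP chow 1 was several times above the other 2 GFP libraries. Cd79a had a log2 fold change of -2.48 ± 0.81, Ms4a1 of -1.83 ± 0.66 and Cxcr5 of -1.71 ± 0.51 (adjusted p = 0.926 for each). Without GFP chow 1 they were at -1.45, -0.93 and -1.01, and the list's median was -0.89. The groups did not overlap in 9 of the 15, against 4.07% of all genes that lay lower in this way. Ms4a1 and Cxcr5 were under 0.5 FPKM in all 3 irisin libraries. They passed the filter only through the GFP libraries and could enter these counts only as lower. Ebf1, also expressed in adipocyte precursors, was the member with a higher mean, at 12.8, 12.5 and 15.9 FPKM in the GFP libraries and 14.8, 13.99 and 13.5 in the irisin libraries, and was level without GFP chow 1 (-0.0017).

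Of 48 tested immunoglobulin segments 41 had a lower mean, with a median of -0.99 that turned to 0.35 without GFP chow 1. The summed level of these segments was 8786, 791 and 729.8 FPKM in the GFP libraries and 1581, 531 and 635 in the irisin libraries, so that irisin chow 1 was above 2 of the 3 GFP libraries. Igkc, the kappa constant gene, was at 3311, 43.9 and 94.5 FPKM in the GFP libraries and 360.4, 35.7 and 88.6 in the irisin libraries, and its log2 fold change turned from -1.2 to 0.70 without GFP chow 1. The median of the plasma cell markers turned from -0.60 to 0.47 without GFP chow 1, and that of the T and NK cell markers from -0.28 to 0.36. Genes of lymph node stroma and homing, of which 5 of 12 were tested, had a median of -1.1, and -0.49 without GFP chow 1. Cxcl13, the chemokine of B cell follicles, was at 133, 5.27 and 12.3 FPKM in the GFP libraries and 11.8, 4.74 and 2.35 in the irisin libraries. GFP chow 1 was highest. The summed FPKM of that list was 163, 8.32 and 17.95 FPKM in the GFP libraries and 15.9, 8.44 and 6.69 in the irisin libraries.

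A set of macrophage genes known from large peritoneal macrophages also lay lower with irisin. This list was chosen after its values were seen, and its counts describe these libraries only. Of 14 tested members 13 had a lower mean and 9 were without overlap, against 4.07% of all genes that lay lower in this way, with a median of -1.29 (-0.70 without GFP chow 1). Unlike the B cell markers, several of these genes were as low against GFP chow 2 and 3 as against GFP chow 1. Prg4, which encodes the lubricating proteoglycan lubricin (chromosome 1, positions 150449412 to 150466165), was at 19.05, 13.5 and 20.96 FPKM in the GFP libraries and 3.73, 4.78 and 6.73 in the irisin libraries, and the lowest GFP library was 2.01 times the highest irisin library. Its log2 fold change was -1.73 ± 0.27 (adjusted p = 0.222), and -1.67 without GFP chow 1 (adjusted p = 0.0655).

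Padi4, a peptidylarginine deiminase, was at 6.098, 2.92 and 4.14 FPKM in the GFP libraries and 1.105, 1.14 and 1.91 in the irisin libraries (log2 -1.35 ± 0.23, adjusted p = 0.259). Serpinb2, a plasminogen activator inhibitor of activated macrophages, was at 2.64, 2.46 and 3.18 FPKM in the GFP libraries and 0.613, 0.919 and 0.1098 in the irisin libraries (log2 -1.72 ± 0.32, adjusted p = 0.375). Cd5l, a secreted protein of tissue macrophages, was at 7.97, 6.52 and 9.84 FPKM in the GFP libraries and 1.798, 2.04 and 2.06 in the irisin libraries (log2 -1.79 ± 0.56, adjusted p = 0.926). In these 3 genes no irisin library reached a GFP library. In a fit of the 6 chow libraries alone Cd5l was called (adjusted p = 0.0475). The main fit also holds the eWAT libraries on HFD. There Cd5l was at 18.2, 3.39 and 26.8 FPKM with GFP and 2.87, 3.25 and 5.39 with irisin. Alox15, the 12/15-lipoxygenase, was at 29.6, 17.2 and 31.7 FPKM in the GFP libraries and 8.85, 7.502 and 12.8 in the irisin libraries, and the coagulation factor gene F5 at 1.101, 2.504 and 3.62 FPKM in the GFP libraries and 0.703, 0.647 and 0.607 in the irisin libraries, both without overlap. Gata6, the factor that defines peritoneal macrophages but is also expressed in mesothelium, was at 10.4, 7.19 and 10.2 FPKM in the GFP libraries and 7.78, 7.81 and 9.69 in the irisin libraries and showed no such order. Its mesothelial share was not tested, and the mesothelial markers had list scores of -0.27, 0.0085 and 0.085 in the GFP libraries and -0.0085, -0.67 and 0.045 in the irisin libraries.

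Other macrophage genes were mixed. Vsig4, a complement receptor of resident macrophages, was at 8.36, 5.103 and 6.41 FPKM in the GFP libraries and 2.26, 2.401 and 1.74 in the irisin libraries (log2 -1.42 ± 0.35, adjusted p = 0.646), whereas Ccl8, a chemokine of resident macrophages, was at 11.5, 8.04 and 5.97 FPKM in the GFP libraries and 23.5, 15.4 and 14.8 in the irisin libraries (log2 1.05 ± 0.28, adjusted p = 0.897). Both were without overlap, in opposite directions. Of the 19 resident macrophage markers 13 had a higher mean (52.4% of all genes), and 6 were without overlap above and 1 below, against 5.92% and 4.07% of all genes (median 0.14). Among them Clec10a was at 29.97, 21.3 and 26.2 FPKM in the GFP libraries and 30.5, 33.7 and 35.8 in the irisin libraries and Mgl2 at 19.5, 21.1 and 21.9 FPKM in the GFP libraries and 35.02, 26.7 and 22.96 in the irisin libraries. Of the general leukocyte and macrophage antigens, Ptprc, which encodes CD45, was at 4.36, 2.595 and 3.16 FPKM in the GFP libraries and 1.61, 1.41 and 1.56 in the irisin libraries, Lyz2, lysozyme, at 923, 616 and 849 FPKM in the GFP libraries and 545, 435 and 534 in the irisin libraries and Adgre1, the antigen F4/80, at 20.2, 17.5 and 24.3 FPKM in the GFP libraries and 16.6, 15.8 and 14.8 in the irisin libraries. All 3 were lower in each irisin library. Of the 16 pan-macrophage markers 6 had a higher and 10 a lower mean. In 3 of the 16 each irisin library lay below each GFP library, against 4.07% of all genes, and in none above. The median of this list was -0.021 and turned to 0.033 without GFP chow 1, with 9 members higher and 7 lower. Ccr2, the receptor of recruited monocytes, was at 8.95, 8.91 and 9.59 FPKM in the GFP libraries and 5.58, 4.105 and 5.91 in the irisin libraries (log2 -0.77 ± 0.18, adjusted p = 0.593), and Itga4, an integrin of leukocytes, at 1.88, 1.18 and 1.97 FPKM in the GFP libraries and 0.627, 0.541 and 0.5303 in the irisin libraries (log2 -1.01 ± 0.23, adjusted p = 0.593). Class II genes of antigen presentation had a lower mean in 12 of 13 cases (median -0.32, and -0.069 without GFP chow 1).

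Among these macrophage genes Padi4 and Serpinb2 had the smallest p in the test of a difference between depots, and neither was called. Padi4 was at log2 0.59 in eWAT on HFD and 0.99 in iWAT on chow. The difference from HFD was -1.94 ± 0.33 (adjusted p = 0.2902) and that from iWAT -2.34 ± 0.43 (adjusted p = 0.288). Serpinb2 differed from iWAT by -2.36 ± 0.46 (adjusted p = 0.288). In eWAT on HFD Serpinb2 was at log2 0.35 and in iWAT on chow at 0.64. In iWAT on chow it was at 0, 0.0252 and 0 FPKM in the GFP libraries and 0.964, 0.182 and 0 in the irisin libraries. The 0.64 therefore rests mostly on iWAT irisin chow 1, near the floor. Padi4 in iWAT on chow was at 0.954, 1.48 and 0.0900 FPKM with GFP and 1.79, 1.78 and 2.04 with irisin. Its lowest library, iWAT GFP chow 3, was also low in Adgre1 (4.63 FPKM, against 26.6 and 27.7 in iWAT GFP chow 1 and 2). The value of 0.288 was the lowest adjusted p of the depot test, shared by Padi4, Serpinb2, Actn3 and the pseudogene Gm11668.

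**Figure D4:**
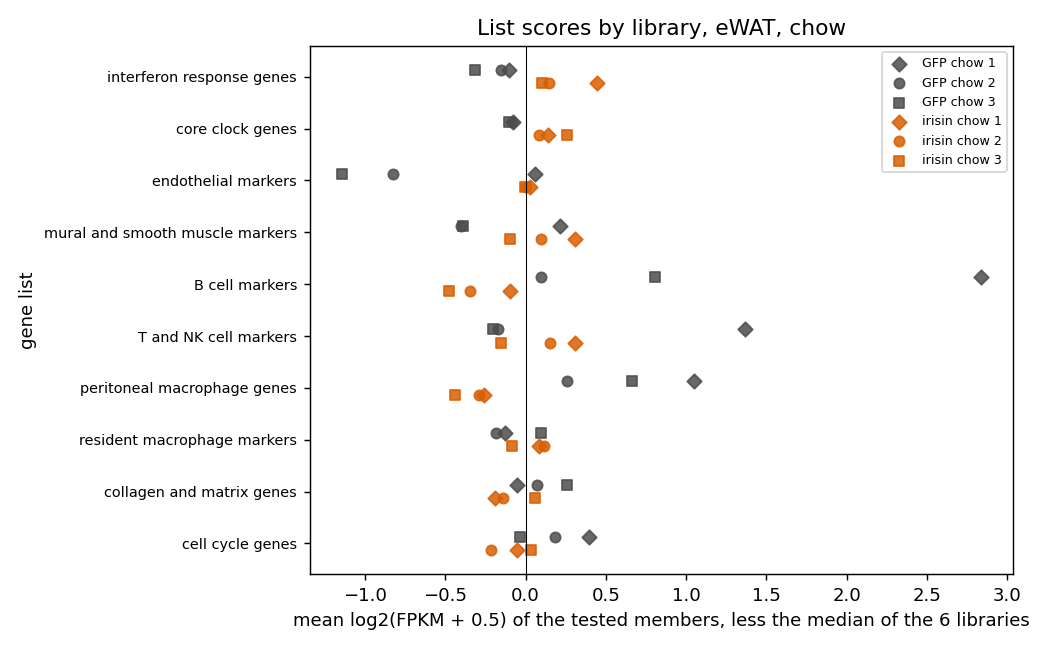
List scores of 10 gene lists in each eWAT chow library (x axis: mean log2(FPKM + 0.5) of the tested members less the median of the 6 libraries; GFP grey, irisin orange, replicate by symbol). GFP chow 1 (grey diamond) stands far right for B and T cell markers, GFP chow 2 and 3 stand left for endothelial markers, and interferon and clock scores separate the groups.

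Endothelial markers were higher with irisin in 19 of 20 cases, with a median of 0.74, but the difference came from the GFP libraries 2 and 3. Cdh5, the adhesion protein VE-cadherin, was at 43.9, 16.2 and 11.5 FPKM in the GFP libraries and 41.2, 40.3 and 36.9 in the irisin libraries. Pecam1, which encodes CD31, was at 29.4, 11.6 and 10.5 FPKM in the GFP libraries and 28.3, 27.2 and 24.5 in the irisin libraries, and Tie1, an endothelial receptor kinase, at 17.1, 5.46 and 4.43 FPKM in the GFP libraries and 13.6, 14.4 and 15.7 in the irisin libraries. In all 3 genes GFP chow 1 was the highest of the 6 and the other GFP libraries were well below every irisin library. The log2 fold change was 0.95 ± 0.41 for Cdh5, 0.77 ± 0.34 for Pecam1 and 0.91 ± 0.40 for Tie1 (adjusted p = 0.926 for each). Without GFP chow 1 they were 1.5, 1.23 and 1.47, and the list's median was 1.03, with 18 of 20 members at an unadjusted p under 0.05, beside 8.12% of all genes that were higher and 7.86% that were lower in this way. In that fit the adjusted p was 0.0654 for Cdh5, 0.0664 for Pecam1 and 0.0603 for Tie1, and none was called.

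Groups without overlap were found for 4 of the 20 endothelial markers, against 5.92% of all genes that lay higher in this way. Tek, the angiopoietin receptor, was at 8.86, 7.04 and 7.21 FPKM in the GFP libraries and 10.7, 11.03 and 9.78 in the irisin libraries, and Gpihbp1, which anchors lipoprotein lipase on capillaries, at 34.04, 19.96 and 19.2 FPKM in the GFP libraries and 40.8, 38.5 and 39.3 in the irisin libraries. The others were Flt1, at 5.28, 2.64 and 1.89 FPKM in the GFP libraries and 5.45, 5.38 and 5.32 in the irisin libraries, and Cldn5, at 63.03, 34.8 and 38.1 FPKM in the GFP libraries and 68.6, 73.2 and 90.7 in the irisin libraries. Ly6c1, an antigen of endothelium and lymphoid cells, was at 67.8, 42.01 and 44.3 FPKM in the GFP libraries and 83.7, 82.1 and 80.7 in the irisin libraries (log2 0.71 ± 0.18, adjusted p = 0.802). Rgcc, at 360.4, 452 and 397 FPKM in the GFP libraries and 449, 485 and 430.2 in the irisin libraries, and the lymphatic and stromal gene Pdpn, at 33.98, 33.3 and 39.3 FPKM in the GFP libraries and 42.9, 24.5 and 37.7 in the irisin libraries, did not share the low values of GFP chow 2 and 3. Of 13 markers of mural cells, which wrap the vessels, 10 had a higher and 3 a lower mean, and some were low in GFP chow 2 and 3. Notch3 was at 8.38, 1.39 and 1.03 FPKM in the GFP libraries and 5.69, 5.93 and 4.94 in the irisin libraries and Kcnj8, a pericyte potassium channel gene, at 10.3, 3.25 and 2.46 FPKM in the GFP libraries and 10.9, 8.602 and 8.27 in the irisin libraries. Acta2, smooth muscle actin, did not share this order, at 47.2, 78.1 and 48.2 FPKM in the GFP libraries and 60.98, 52.3 and 35.3 in the irisin libraries. The median of the 13 mural markers was 0.13, and 0.52 without GFP chow 1. Cxcl12, a chemokine of stroma and endothelium, was at 17.8, 7.74 and 7.65 FPKM in the GFP libraries and 18.97, 19.6 and 14.7 in the irisin libraries and was likewise low only in GFP chow 2 and 3. The matrix genes ran opposite, with a lower mean in 24 of 33 (median -0.12, and -0.21 without GFP chow 1). Fn1, fibronectin, was at 143, 119 and 138 FPKM in the GFP libraries and 66.7, 95.5 and 105 in the irisin libraries, Eln, elastin, at 19.5, 22.1 and 34.3 FPKM in the GFP libraries and 18.5, 15.4 and 14.5 in the irisin libraries, and Thbs1, thrombospondin, at 19.4, 23.5 and 41.1 FPKM in the GFP libraries and 17.6, 12.05 and 14.6 in the irisin libraries, all without overlap (log2 -0.60 ± 0.24, -0.60 ± 0.24 and -0.84 ± 0.35, adjusted p = 0.926 for each).

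Most genes of the adipocytes themselves lay close to level, and none was called. The adipokine gene Adipoq was at 1641, 2061 and 2284 FPKM in the GFP libraries and 2201, 1990.4 and 1909 in the irisin libraries, with overlapping groups (log2 0.038 ± 0.31, adjusted p = 0.9998). Lep, the gene of leptin, was at 166, 356 and 254 FPKM in the GFP libraries and 156, 160.2 and 129 in the irisin libraries, each irisin library below each GFP library (log2 -0.74 ± 0.26, adjusted p = 0.926). GFP chow 1 was only 1.03 times the highest irisin library, and without GFP chow 1 the log2 fold change was -1.02 (adjusted p = 0.0847). Pparg, the master regulator of fat cells, was at 50.5, 69.8 and 53.9 FPKM in the GFP libraries and 76.6, 73.7 and 71.2 in the irisin libraries (log2 0.36 ± 0.15, adjusted p = 0.926), and Aqp7, the glycerol channel, at 41.2, 42.1 and 41.6 FPKM in the GFP libraries and 57.2, 56.7 and 54.8 in the irisin libraries (log2 0.43 ± 0.22, adjusted p = 0.926). Both lay higher in each irisin library. Hcar2, a receptor that restrains lipolysis, was at 9.23, 8.67 and 7.59 FPKM in the GFP libraries and 12.7, 15.05 and 14.7 in the irisin libraries (log2 0.70 ± 0.18, adjusted p = 0.756). The 35 genes of adipocyte identity had a median of 0.067, with 24 higher, and one of 0.018 without GFP chow 1, with 18 higher and 17 lower. In that fit Adipoq turned to -0.10.

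Energy metabolism was close to level by its list medians. Of 54 nuclear genes of oxidative phosphorylation 51 had a higher mean, but the median was 0.089, and 0.0080 without GFP chow 1. The 13 respiratory genes of the mitochondrial genome had a median of 0.030 (9 higher, 4 lower). Without GFP chow 1 it was -0.060 (2 higher, 11 lower). Among them mt-Nd4l was lower in each irisin library, at 56.9, 44.7 and 87.2 against 16.8, 40.4 and 17.1 FPKM (log2 -1.40 ± 0.44, adjusted p = 0.926). mt-Nd5 overlapped (log2 -0.27 ± 0.33, adjusted p = 0.973). Fatty acid oxidation had a median of 0.067 over 25 genes, which turned to -0.018 without GFP chow 1 (11 higher, 14 lower). De novo lipogenesis had one of 0.14 over 22 genes, and 0.24 without that library. The thermogenic genes had one of 0.13 over 18. Ucp1, the uncoupling protein of brown and beige fat, was listed at 0 in 5 libraries and at 0.0330 FPKM in irisin chow 2. Mlxipl, which encodes the glucose-responsive lipogenic factor ChREBP, was at 24.9, 11 and 11.9 FPKM in the GFP libraries and 20.3, 27.5 and 30.2 in the irisin libraries (log2 0.77 ± 0.27, adjusted p = 0.926), and only GFP chow 2 and 3 were low. Sfrp5, a Wnt antagonist secreted by fat cells, ranged from 7.74 to 52.2 FPKM with GFP and from 2.51 to 19.8 with irisin (log2 -1.43 ± 0.71, adjusted p = 0.926). Cell cycle genes had a lower mean in 21 of 22 cases (median -0.29), or in 16 of 22 without GFP chow 1 (median -0.16), and 7 were without overlap below, against 4.07% of all genes. Mki67, the proliferation antigen, was at 1.48, 1.29 and 1.16 FPKM in the GFP libraries and 0.7097, 0.483 and 0.833 in the irisin libraries, and Top2a at 1.18, 1.45 and 1.08 FPKM in the GFP libraries and 0.746, 0.509 and 0.758 in the irisin libraries, both low in every library.

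Among the remaining protein-coding genes that the naming rule put first, the groups did not overlap and none was called. Higher with irisin were Rfxap, a factor of class II transcription, at 8.18, 6.98 and 7.74 FPKM in the GFP libraries and 10.2, 10.8 and 11.3 in the irisin libraries (log2 0.47 ± 0.10, adjusted p = 0.495), and Gpr146, an orphan receptor, at 10.01, 8.33 and 7.597 FPKM in the GFP libraries and 13.4, 11.3 and 15.6 in the irisin libraries (log2 0.60 ± 0.15). Dusp26, a phosphatase, was at 0.744, 0.407 and 0.337 FPKM in the GFP libraries and 1.25, 1.03 and 1.62 in the irisin libraries, and Unc93a2 at 0.851, 0.4898 and 0.6499 FPKM in the GFP libraries and 1.28, 1.797 and 2.12 in the irisin libraries. A930033H14Rik was at 1.31, 0.777 and 0.745 FPKM in the GFP libraries and 1.92, 1.8 and 1.91 in the irisin libraries. Gm10959 was listed at 0 in all 3 GFP libraries and at 1.67, 0.7498 and 0.895 FPKM in the irisin libraries. Its gene model has only 72 bases, so that a few reads decide these values. Lower were Mcemp1, a gene of mast cells and myeloid cells, at 2.25, 1.45 and 2.44 FPKM in the GFP libraries and 0.683, 0.795 and 0.475 in the irisin libraries (log2 -1.13 ± 0.24), and Macf1, which links actin and microtubules, at 7.104, 8.45 and 9.28 FPKM in the GFP libraries and 6.13, 4.95 and 5.33 in the irisin libraries (log2 -0.55 ± 0.12). Cd226, a receptor of T and NK cells, was at 1.203, 0.857 and 1.88 FPKM in the GFP libraries and 0.433, 0.275 and 0.301 in the irisin libraries (log2 -1.08 ± 0.25), and Dock8, a regulator of leukocyte migration, at 6.22, 5.402 and 4.88 FPKM in the GFP libraries and 4.24, 3.17 and 2.96 in the irisin libraries (log2 -0.61 ± 0.15). The adjusted p of these genes lay between 0.491 and 0.639.

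The 3 smallest p-values belonged to features with short gene models, for which a few reads decide the FPKM. Gm17720, with a model of 27 bases, was at 2.44, 2.67 and 11.1 FPKM in the GFP libraries and listed at 0 in all 3 irisin libraries (adjusted p = 0.0934). Gm45313, of 178 bases, and Gm25618, of 107, were listed at 0 with GFP and at 0.607 to 1.01 and 1.12 to 3.01 FPKM with irisin. In all, 12 features were listed at 0 with GFP and above 0 in each irisin library, 11 of them under 300 bases, and 10 features showed the reverse, 9 of them under 300 bases. Over gene models of at least 300 bases, a choice made after seeing the data, the lowest adjusted p was 0.542.

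**Figure D5:**
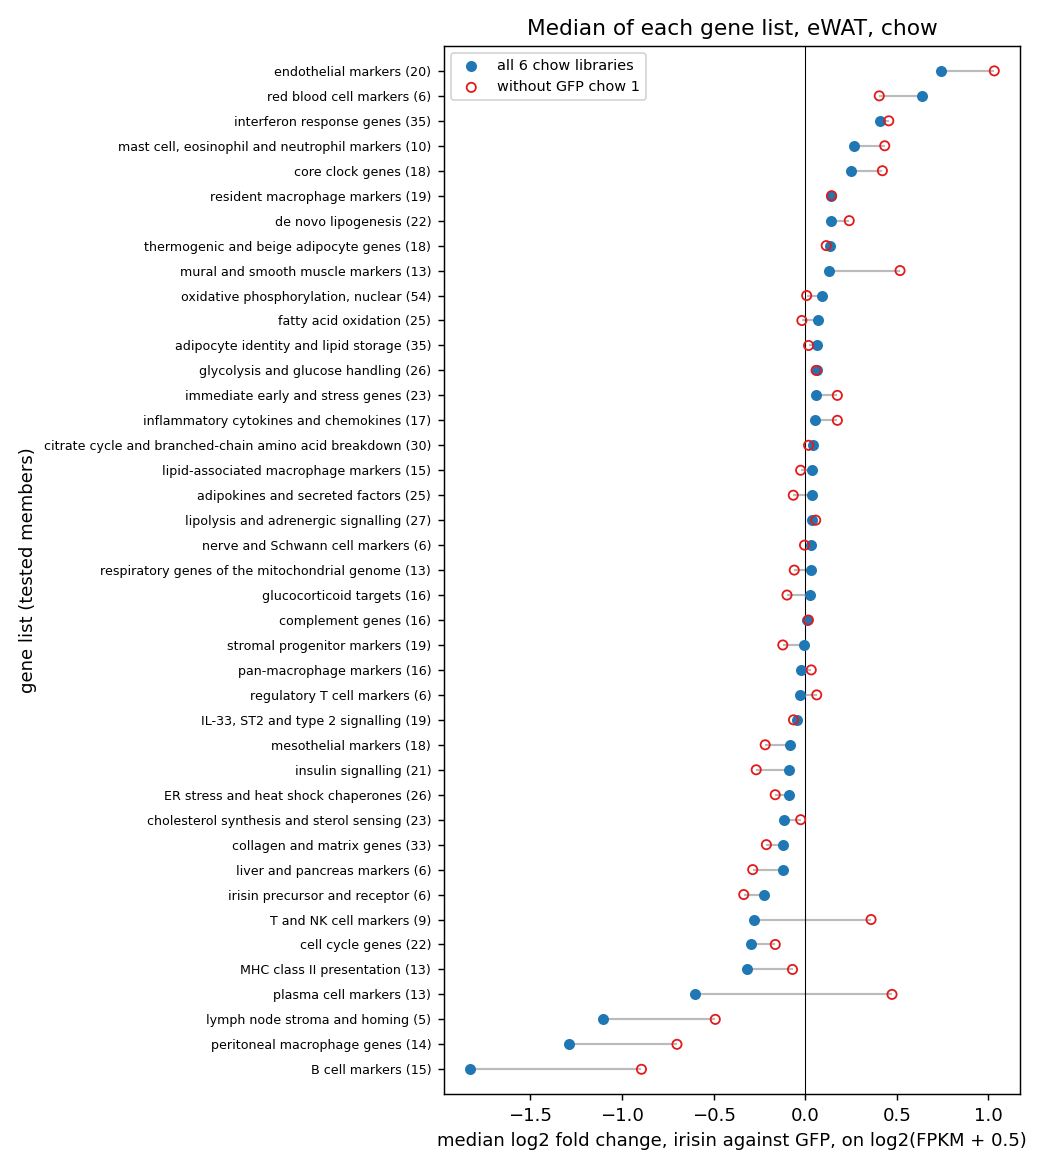
Median log2 fold change, irisin against GFP in eWAT on chow, of each gene list with at least 5 tested members (number in brackets), from all 6 chow libraries (blue) and without GFP chow 1 (red circles). The interferon median moves little (0.41 to 0.46), the clock median grows to 0.42, the B cell median shrinks towards 0, the endothelial median grows, and the plasma cell and T cell medians turn sign.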

How the data were processed

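RNA from whole fat was selected with poly-T beads, per the labels' protocols, which describe both a stranded and an unstranded preparation. Which of these was used and the genome build are not given in the sources used here. HISAT2 (2.0.5) and featureCounts (1.5.0-p3) are named in the submitters' processing notes. The authors deposited 1 table of FPKM per gene and library, with gene lengths and positions. Another 8 columns of per-sample values were not used. FPKM times gene length gave whole reads for 100% of values (tolerance 0.01 read), which served for depth and for the voom alternative. Total gene reads are given with the results, and 1 FPKM of a gene of 2 kilobases rested on about 27.7 to 37.0 reads.

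log2(FPKM + 0.5) of the 14840 genes that reached 0.5 FPKM in 3 or more chow libraries was fitted with limma 3.58.1 (trend, R 4.3.3) over the 12 eWAT libraries, or all 24 for the depot test. P-values were adjusted by Benjamini-Hochberg over all 14840 genes. An exact permutation test of 3 against 3 cannot go below 0.1. The model was also run on simulated data. The outcome is not given here, so that the power of 3 against 3 libraries stays unstated. The members and the gene lists were chosen with earlier results of these data known, and the peritoneal macrophage list and the genes named beyond the rule were chosen after their values were seen. By the rule, the text names the irisin and IL-33 genes, the 10 genes in each direction with the smallest p among protein-coding genes whose mean reached 1 FPKM and groups that do not overlap, the 2 first members of each list described and the tissue checks. Where a symbol occurs more than 1 time in the table, the entry with the highest mean was used. Alternatives changed the pseudocount, filter, scaling, libraries, weights and the replicate block. Promoter windows came from RefSeq (GRCm38.p6), matched by symbol, and no coordinates were carried between builds. The values of 1 interferon response gene and 1 lymphocyte gene are not reported here, though both stay in the fits and list counts.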

Additional observations from a re-analysis of the deposited data

Results flagged for a closer look

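Gm17720 was the 1 gene of 14840 (0.00674%) for which limma's test called the effect of the irisin vector different between chow and HFD in eWAT, with a difference of -5.74 on the log2(FPKM + 0.5) scale (adjusted p = 0.0144). On chow it was at 2.44, 2.67 and 11.1 FPKM with GFP and listed at 0 in all 3 irisin libraries. On HFD it was listed at 0 in all 3 GFP libraries and at 1.92, 2.66 and 2.36 FPKM with irisin. Its gene model has 27 bases, so that each value rests on few reads, and the size of a difference from libraries at 0 depends on the pseudocount. The call was lost with a pseudocount of 1 and with the replicate block. The cause was not tested.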

How the results depend on the processing

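The count of called genes, 0 with all libraries, was 1 with log2(FPKM + 0.1), 4 without a filter (of 28107 genes), 4 in the 6 chow libraries alone, 1 without the library GFP HFD 3 and 1 with array weights. Leaving out each chow library in turn gave 0 to 1, with 1 without GFP chow 2 (Igkj2) and 1 without GFP chow 3 (Gm17720). Apart from Cd5l (-1.79, adjusted p = 0.0475 in the 6 libraries alone), every gene called under any of these settings was listed at 0 in all 3 libraries of 1 group. At an unadjusted p under 0.05 stood 785 genes with all libraries, 2371 without GFP chow 1, 2792 with array weights, 505 without GFP chow 2, 409 without GFP chow 3, 497 without irisin chow 2 and 465 without irisin chow 3. The difference between diets, 1 called gene, gave 0 with log2(FPKM + 1). Leaving out each chow library in turn gave Il33 values from -0.53 (without GFP chow 2) to 0.25, and its direction turned to 0.25 without GFP chow 3 and to 0.094 without irisin chow 2, and none of the other 23 genes of the irisin, IL-33 and smallest-p sets for which the alternatives were run turned. Of the further genes named, Adipoq, Wt1, Igkc, Ifit2 and Ebf1 turned without GFP chow 1. The cause was not tested.

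Same-numbered libraries of the 2 vectors did not deviate together in every pair (correlations of 0.0342, 0.116 and 0.0152), and GFP chow 1 correlated best with irisin chow 3 (0.0421), so that the numbers were not taken as a pairing. With the replicate block 0 genes were called for irisin against GFP, 698 stood at an unadjusted p under 0.05 and the lowest adjusted p was 0.468. The difference between diets gave 0 called genes with the block. The medians of the interferon, clock, B cell and endothelial lists kept their sign in 13 other settings, whereas those of the T and NK cell, plasma cell, regulatory T cell, pan-macrophage and fatty acid oxidation lists turned without GFP chow 1.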

Other observations

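Red blood cell markers, which no comparison above describes, had a higher mean with irisin in 5 of 6 tested genes (median 0.64), with list scores of -0.71, 0.086 and -0.44 in the GFP libraries and 0.051, 0.46 and -0.051 in the irisin libraries. Lipolysis and adrenergic genes had 5 of 27 members with each irisin library above each GFP library, beside 5.92% of all genes, and a median of 0.038. Cholesterol synthesis genes had a median of -0.11 over 23 genes, and chaperones one of -0.089 over 26. None of the members was called.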
